A study of Homo sapiens with 10 samples.

Results

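The ERBB receptor genes are the 4 human genes ERBB2, EGFR, ERBB3 and ERBB4, taken by name from the 20090 protein-coding genes on chromosomes 1 to 22 and X. Each gene was examined over a window made of the gene body and 50 kb on each side, in the genome build GRCh37 (hg19). ChIP-seq for H3K4me1, the single methylation of lysine 4 of histone H3 that is typical of enhancers, was done in SKBR3 and BT474, established breast cancer cell lines in which ERBB2 is amplified. Each line had 2 H3K4me1 libraries, from asynchronous cells according to the labels, although the study's text has these cells treated with EGF. The study also mapped chromatin-bound HER2, the protein product of ERBB2, by ChIP-exo, in which an exonuclease trims the bound DNA before sequencing. SKBR3 and BT474 cells for HER2 had received either water as vehicle, or EGF at 100 ng/ml for 3 hours without withdrawal of serum, and each of these 4 conditions had 1 list of peaks and no replicate. The labels name other lots of the HER2 antibody for SKBR3 than for BT474, so line and lot cannot be told apart for HER2.

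The ERBB receptors are transmembrane tyrosine kinases that work in pairs. EGFR binds EGF and related ligands, ERBB3 and ERBB4 bind neuregulins, and HER2 has no known ligand of its own and is the favoured partner of the others. ERBB3 has little kinase activity and relays its signal largely through PI3 kinase. Paired receptors signal through adaptors to the RAS and MAP kinase cascade, PI3 kinase and AKT, and STAT factors. In breast epithelium ERBB2 amplification defines a class of tumours treated with antibodies and kinase inhibitors.

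ERBB2 (ENSG00000141736.14_10) lies on the plus strand of chromosome 17, from 37844167 to 37886679. EGFR (ENSG00000146648.21_13) lies on the plus strand of chromosome 7, from 55086710 to 55279321. ERBB3 (ENSG00000065361.17_11) lies on the plus strand of chromosome 12, from 56470583 to 56497289. ERBB4 (ENSG00000178568.16_13) lies on the minus strand of chromosome 2, from 212240442 to 213403565. The windows were 142.5 kb, 292.6 kb, 126.7 kb and 1263 kb long, in this order, so ERBB4 alone made up most of the sequence examined.

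The lists held 33 HER2 peaks in the 4 windows, and the sequences of 5 are given first because later results refer to them. All are in GRCh37 and read 5′ to 3′ on the plus strand. The first is the EGFR upstream site found in all 4 lists, at chr7:55051751-55051961 as called in SKBR3 after EGF. The second and the third are sites in the first intron of EGFR, at chr7:55129942-55130145 and at the central bases of a longer peak, chr7:55163384-55163683, both from SKBR3 after EGF. The fourth is the ERBB4 intron 4 site at chr2:212643130-212643416, from BT474 after vehicle. The fifth is the single peak of the 33 with the core CGTNTGC, in ERBB4 intron 1 at chr2:213086561-213086760, from BT474 after EGF. Capitals mark runs of 3 or more CA units in the third sequence, bases that differ from the mitochondrial genome in the fourth and the core in the fifth. The mitochondrial alignment of the fourth starts at its base 13, and the bases before that were not compared.
EGFR upstream: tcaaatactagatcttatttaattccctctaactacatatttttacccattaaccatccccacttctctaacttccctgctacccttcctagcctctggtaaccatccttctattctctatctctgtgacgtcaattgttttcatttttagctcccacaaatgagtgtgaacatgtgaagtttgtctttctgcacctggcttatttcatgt
EGFR intron 1, nearer the start: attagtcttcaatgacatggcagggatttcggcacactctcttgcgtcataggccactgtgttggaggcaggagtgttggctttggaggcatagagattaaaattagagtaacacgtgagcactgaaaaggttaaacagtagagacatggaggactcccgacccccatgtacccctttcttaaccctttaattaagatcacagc
EGFR intron 1, farther from the start: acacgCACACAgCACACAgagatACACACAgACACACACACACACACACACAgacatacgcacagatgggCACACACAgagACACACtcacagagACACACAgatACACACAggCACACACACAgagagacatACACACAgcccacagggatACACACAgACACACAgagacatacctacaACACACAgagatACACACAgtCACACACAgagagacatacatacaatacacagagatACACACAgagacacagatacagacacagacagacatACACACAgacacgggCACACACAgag
ERBB4 intron 4: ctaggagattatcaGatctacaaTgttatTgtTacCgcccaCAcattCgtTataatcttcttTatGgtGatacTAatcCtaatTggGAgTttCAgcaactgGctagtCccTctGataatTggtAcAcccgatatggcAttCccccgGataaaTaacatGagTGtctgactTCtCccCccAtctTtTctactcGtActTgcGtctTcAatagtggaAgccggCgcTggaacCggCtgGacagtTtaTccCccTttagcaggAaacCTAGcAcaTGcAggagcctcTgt
ERBB4 intron 1: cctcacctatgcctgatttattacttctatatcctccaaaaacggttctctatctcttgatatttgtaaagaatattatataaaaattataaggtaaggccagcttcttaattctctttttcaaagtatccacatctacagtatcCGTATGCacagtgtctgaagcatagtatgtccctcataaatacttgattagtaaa

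These sequences were unlike each other. Runs of 3 or more CA units made up 49.7% of the whole farther EGFR peak in SKBR3 after EGF, 43.0% in BT474 after vehicle and 34.7% in BT474 after EGF. A share of 25% or more was found in 4.40%, 1.36% and 1.48% of all peaks of those lists. Of the ERBB4 intron 4 peak, 275 bases aligned to bases 6057 to 6331 of the mitochondrial genome of the same assembly with 75.3% identity. An alignment to that genome of at least 100 bp was found for 3 of 8559 peaks of the list. Among stretches of 20 bases, 98.9% of those in the nearer EGFR intron 1 peak occurred once in the genome, against 40.1% in the upstream peak. The core, sought on both strands, began at 213086706 in the ERBB4 intron 1 peak. It occurred in 8.44% and 15.9% of all SKBR3 peaks after vehicle and EGF, and in 19.4% and 11.8% of BT474 peaks.

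The H3K4me1 libraries held 15636057 and 15314195 reads inside islands in SKBR3 and 18714089 and 15097245 in BT474, where an island is a stretch the authors called as enriched. Nothing in the labels says that the replicates came from separate cultures, so p-values measure only the spread between these libraries. HER2 peaks carry a score and no read count, and the depth of those libraries is unknown. Islands lay within the body of 3 of 7 luminal marker genes in both SKBR3 libraries and of 6 of 7 in both BT474 libraries. GATA3, FOXA1 and CDH1 were at 0 in both SKBR3 libraries, FOXA1 also in BT474 replicate 1, whereas KRT8 was 61.8% to 67.5% covered in all 4. KRT19 went the other way, with 71.0% and 62.5% in SKBR3 and 45.4% and 28.4% in BT474. Basal KRT14 was 83.8% covered in both SKBR3 libraries and 0% in BT474. Basal KRT5 was 70.5% and 38.9% covered in SKBR3 and 0% and 1.91% in BT474. Basal TP63 differed less, at 41.2% and 43.1% in SKBR3 and 32.1% and 37.04% in BT474. PGR, the progesterone receptor gene, was 2.40% and 3.54% covered in SKBR3 and 88.6% and 86.6% in BT474. ESR1, an oestrogen receptor gene, differed less, at 19.7% and 18.8% in SKBR3 and 26.3% and 27.3% in BT474. Levels are given as RPKM, the reads per kb of length for each 1000000 reads in the islands of the library. Summed over each list, the RPKM of gene bodies was 7.37 to 7.93 in SKBR3 and 9.43 to 10.1 in BT474 for luminal genes, and 6.52 to 6.71 and 1.35 to 1.52 for basal genes. For mesenchyme, leukocyte and endothelial genes the sums were 0.779 to 0.909, 3.66 to 4.05 and 1.11 to 1.36 in SKBR3, and 2.19 to 2.40, 1.47 to 1.54 and 1.44 to 1.46 in BT474. These marks do not measure expression, and any part of other cell types in the results was not tested.

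The first comparison asked how H3K4me1 at the receptor genes differed between the lines. Islands covered nearly the whole ERBB2 window in both lines, EGFR was covered mainly in SKBR3, ERBB4 mainly in BT474, and the ERBB3 window had similar cover in both. In the ERBB2 window cover was 99.3% and 99.2% in the SKBR3 libraries and 100% in both BT474 libraries. The EGFR window was 55.4% and 56.2% covered in SKBR3 and 18.5% and 17.0% in BT474. Cover of the ERBB3 window was 24.4% and 25.8% in SKBR3 and 29.7% and 26.0% in BT474, and that of the ERBB4 window 2.201% and 2.44% against 13.9% and 14.2%. The median over all protein-coding windows was 11.5% to 12.8% in the 4 libraries, so ERBB4 lay below it in SKBR3 and above it in BT474.

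The libraries of the lines did not overlap for any of the 4 windows in percent covered, with ERBB2, ERBB3 and ERBB4 higher in BT474 and EGFR higher in SKBR3. Among all windows 41.9% were apart in the first direction and 36.7% in the second, so the separation alone did not mark out the receptor genes. Means were 55.8% ± 0.580 and 17.8% ± 1.06 for EGFR and 2.32% ± 0.168 and 14.1% ± 0.213 for ERBB4, in SKBR3 and BT474 (SD, n = 2). For ERBB3 the means of 25.1% ± 0.994 and 27.9% ± 2.68 differed by 2.76 percentage points, about the SD of the BT474 libraries. That difference was 0.861 without BT474 replicate 1 and 4.65 without BT474 replicate 2. It also depended on the flanks, being 11.4 points over the gene body alone and 10.9 with flanks of 10 kb. With 2 libraries against 2, an exact two-sided permutation test cannot give a p below 0.333, and none was run on cover.

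**Figure D1:**
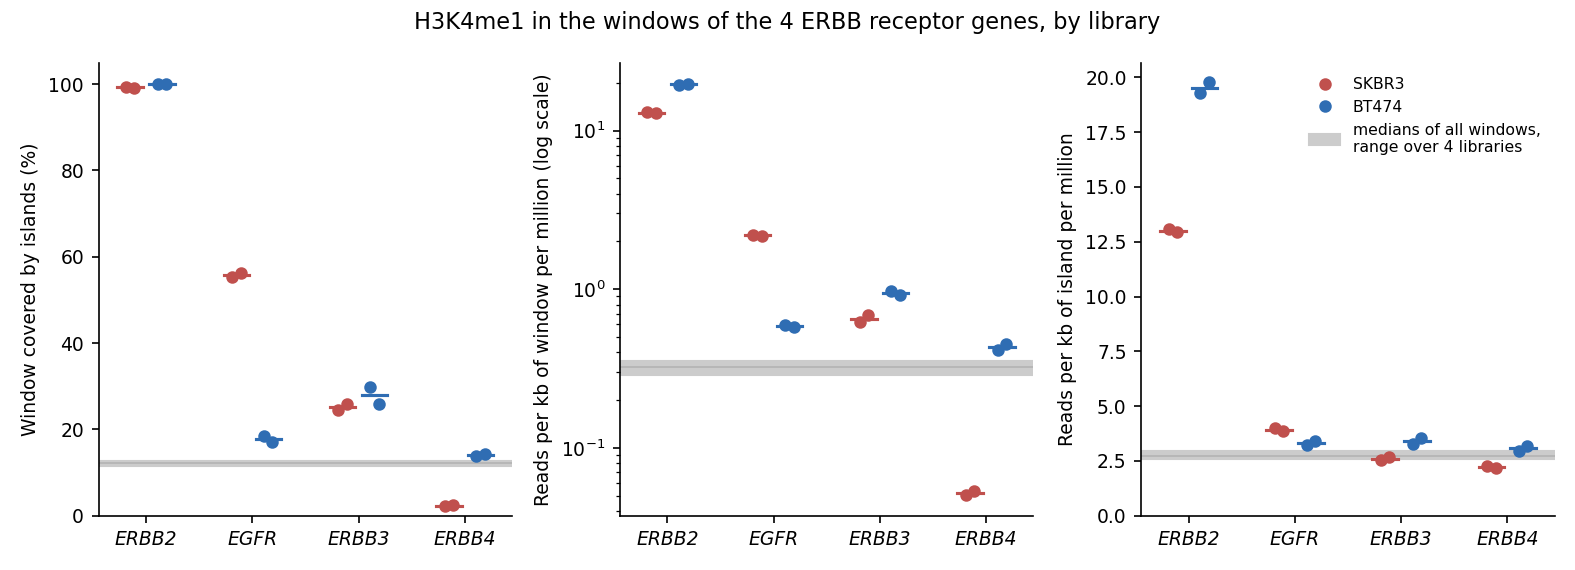
H3K4me1 in the windows of the 4 receptor genes, with SKBR3 in red and BT474 in blue, each point a library and each bar the mean of 2. The panels show percent of the window covered, RPKM of the window on a log axis, and RPKM within islands. The grey band spans the medians over all protein-coding windows. ERBB2 lies far above the band in every panel. EGFR is higher in SKBR3 and ERBB4 is higher in BT474 in every panel.

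Reads in the windows gave the same order of lines. The RPKM of the ERBB2 window, over its whole length, was 13.0 and 12.8 in SKBR3 and 19.3 and 19.8 in BT474. These levels ranked 7th and 9th in SKBR3 and 4th and 2nd in BT474 among 20090 windows. The EGFR levels were 2.205 and 2.16 in SKBR3 and 0.597 and 0.581 in BT474. ERBB3 had 0.621 and 0.686 against 0.971 and 0.922, and ERBB4 had 0.0503 and 0.0535 against 0.414 and 0.453. The levels of the lines did not overlap for any of the 4, as was so for 49.3% of all windows with BT474 higher and for 34.7% with SKBR3 higher. Medians over all windows were 0.288 to 0.353, on the same scale.

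All 4 windows were called in edgeR's quasi-likelihood test, fitted to 18838 windows, where 72.1% of windows were called, 42.1% higher in BT474 and 30% higher in SKBR3. The median log2 difference of all windows was 0.26, BT474 minus SKBR3. The EGFR window was 3.71-fold higher in SKBR3, with a log2 difference of -1.89 (SE 0.044, edgeR adjusted p = 7.07e-05), and 7.26% of windows had a lower value. ERBB4 was 8.35-fold higher in BT474, at 3.06 (SE 0.075, edgeR adjusted p = 7.28e-05), with 90.3% of windows lower. ERBB2, at 0.60 (SE 0.022, edgeR adjusted p = 0.000127), and ERBB3, at 0.54 (SE 0.084, edgeR adjusted p = 0.00453), stood near the middle, above 59.8% and 58.1% of windows. ERBB3 was no longer called over its gene body alone (edgeR adjusted p = 0.0846), nor was ERBB2 when whole islands were assigned by their midpoints (edgeR adjusted p = 0.0521).

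The difference at EGFR and ERBB4 lay in the length covered more than in the density within islands. The RPKM within islands, over the covered length alone, was 3.98 and 3.85 in SKBR3 and 3.22 and 3.41 in BT474 at EGFR, and 2.29 and 2.19 against 2.97 and 3.18 at ERBB4. Cover thus differed 3.14-fold at EGFR and island density 1.18-fold, and at ERBB4 the figures were 6.07-fold and 1.37-fold. Islands were called as enriched in each library separately, so weaker signal drops out of cover and the density of what remains has a floor. The split between length and density therefore depends on the calling. At ERBB3 island density was 2.54 and 2.66 in SKBR3 and 3.26 and 3.55 in BT474. At ERBB2, where cover was near its limit in both lines, island density was 13.1 and 12.9 in SKBR3 and 19.3 and 19.8 in BT474, a ratio of 1.501. The libraries of the lines were again apart, 3 windows being denser in BT474, as were 54.7% of the windows with islands in all libraries, and EGFR denser in SKBR3, as were 18.3%. Medians of island density were 2.59 to 2.60 in SKBR3 and 2.80 to 2.93 in BT474.

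The ERBB2 window lay in islands that ran well beyond it. In BT474 a single island of 236.6 kb, chr17:37742201-37978800, covered the window with the same ends in both replicates and held 85308 and 70638 reads, the most of any island in either library. SKBR3 had 2 islands there in each replicate, separated by gaps of 1.0 and 1.2 kb. The gap contained the canonical start site of ERBB2, at 37856317, which stood 117 bp past the end of the left island. It was the sole uncovered stretch of the window. The right islands ended 122.3 and 122.5 kb past the start site in SKBR3, close to the end of the BT474 island at 122.5 kb. The bodies of 7 other protein-coding genes overlapped the window, namely STARD3, TCAP, PNMT, PGAP3, MIEN1, GRB7, which encodes an adaptor that binds HER2, and IKZF3, and they shared its islands. The deposited value is 1 read count for each island, so the profile inside an island is not resolved. More copies of the gene and more of the mark on each copy cannot be told apart here, as the inputs were not analysed here.

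Beyond the window the lines separated. From 50 to 200 kb to the left of the ERBB2 body, the RPKM was 12.6 and 13.7 in BT474 and in SKBR3 4.54 and 7.69. From 500 to 1000 kb to the left the levels were 5.85 and 6.43 in BT474 and 0.953 and 1.18 in SKBR3. On the right the order was the reverse at that distance, with 1.06 and 1.04 in BT474 and 4.14 and 4.56 in SKBR3. At this distance the replicates of a line were close to each other and the lines did not overlap on either side. The RPKM of gene windows was likewise apart in 49.3% with BT474 higher and in 34.7% with SKBR3 higher. The share among stretches of this kind was not counted. The window genes most like ERBB2 over the 4 libraries, apart from those overlapping it, were RPL19, a ribosomal protein gene, and STAC2, 483.1 and 462.0 kb away. The RPKM of their windows was 7.98 to 8.85, and their Euclidean distances from ERBB2 on the log2 scale were 1.88 and 1.94.

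**Figure D2:**
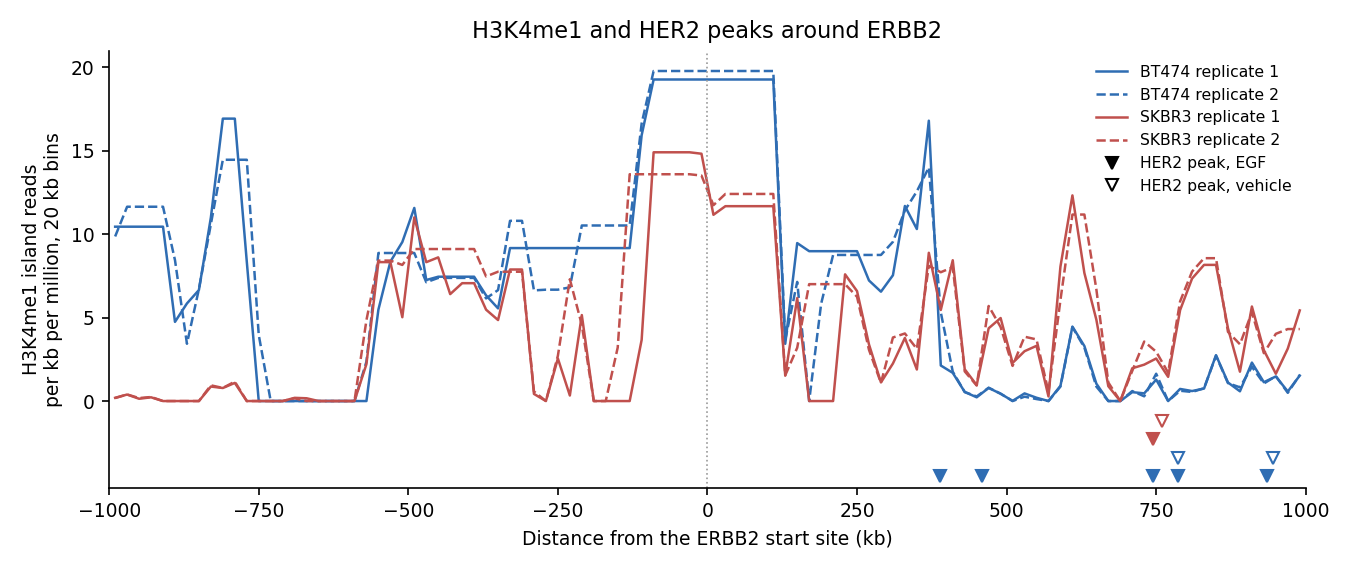
H3K4me1 RPKM in 20 kb bins, against distance from the ERBB2 start site, with SKBR3 in red, BT474 in blue and replicate 2 dashed. Triangles below 0 are HER2 peaks, 1 row a list, open for vehicle and filled for EGF. All 4 libraries are high around the start site, and the nearest HER2 peak in any list lies 388.6 kb to the right of it.

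At EGFR the first intron accounted for most of the difference. It spans 122.9 kb and was 92.6% and 92.3% covered in SKBR3 against 19.04% and 17.1% in BT474. The gene body past that intron went the other way, with 17.2% in both SKBR3 libraries and 25.1% and 23.7% in BT474. In SKBR3 the cover began 1.49 kb past the start site in both replicates, as a single island of 80.2 kb in replicate 2. That island ranked 82nd by reads in its library. The 2 BT474 libraries shared 43.8 kb of covered bases in the window, and 83.6% of these were also covered in both SKBR3 libraries. In turn 23.8% of the 153.5 kb shared by the SKBR3 libraries was covered in both BT474 libraries, and 106.5 kb was covered in both SKBR3 libraries and neither BT474 library. The genes most like EGFR over the 4 libraries were EXPH5 and SLC45A3, at distances of 0.0742 and 0.100.

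ERBB4 had 9 and 10 islands in SKBR3 and 59 and 60 in BT474, spread along a gene of 1163 kb. Its first intron, of 413.5 kb, was 0.290% and 1.25% covered in SKBR3 and 14.7% and 13.98% in BT474. The flank downstream of the gene held no island in SKBR3 and was 15.3% and 20.1% covered in BT474. The bases shared by the BT474 libraries came to 149 kb, of which 125.4 kb lay in neither SKBR3 library. Of the 23 kb shared by the SKBR3 libraries, 72.2% was also covered in both BT474 libraries. The genes most like ERBB4 were FILIP1 and SHROOM2, at distances of 0.167 and 0.202.

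ERBB3 was covered to a similar extent near its start in both lines and less alike elsewhere. In its first intron, of 3.37 kb, cover was 71.3% and 81.2% in SKBR3 and 81.2% in both BT474 libraries. The whole gene body was 18.7% and 29.5% covered in SKBR3 and 36.3% and 34.8% in BT474. The upstream flank was covered more in SKBR3, at 29.2% and 26.8% against 18.8% and 15.2%, and the downstream flank more in BT474, at 22.6% and 22.8% against 37.2% and 32.0%. The flanks of ERBB3 thus differed in opposite directions, with no overlap between the lines in either. Such separation is common, as cover of whole windows was apart in 41.9% with BT474 higher and in 36.7% with SKBR3 higher. The share among flanks was not counted. Of the 31.7 kb shared by the BT474 libraries, 53.9% was covered in both SKBR3 libraries, and 72.1% of the 23.7 kb shared in SKBR3 was covered in both BT474 libraries. The window also overlapped 8 other protein-coding genes, IKZF4, RPS26, ENSG00000257411, PA2G4, which encodes an ERBB3-binding protein, RPL41, ESYT1, ZC3H10 and MYL6B. The genes most like ERBB3 were TOR4A and NUDCD3, at distances of 0.0876 and 0.108. No other protein-coding gene body overlapped the EGFR or ERBB4 window.

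Start sites were mostly outside islands except at ERBB2. Of 21 distinct start sites of ERBB2 transcripts, 15 lay in an island in each SKBR3 library and all 21 in each BT474 library. EGFR had 12 start sites, of which 1 was in an island in each SKBR3 library and 2 and 1 in the BT474 libraries. For ERBB3, 1 and 5 of 32 were in islands in SKBR3 and 5 in each BT474 library. For ERBB4 the counts of 8 were 0 and 4 in SKBR3 and 0 and 1 in BT474. The canonical start site of ERBB2 was in an island of both BT474 libraries and of no SKBR3 library, that of ERBB4 in SKBR3 replicate 2 alone, and those of EGFR and ERBB3 in none. Among all protein-coding genes, 10.7% had their 5′ end in an island of both SKBR3 libraries and 13.8% in an island of both BT474 libraries. That 5′ end is the outermost annotated base of the gene and can differ from the canonical start site. At ERBB2 it is 37844167 and lay in an island of both libraries of each line.

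**Figure D3:**
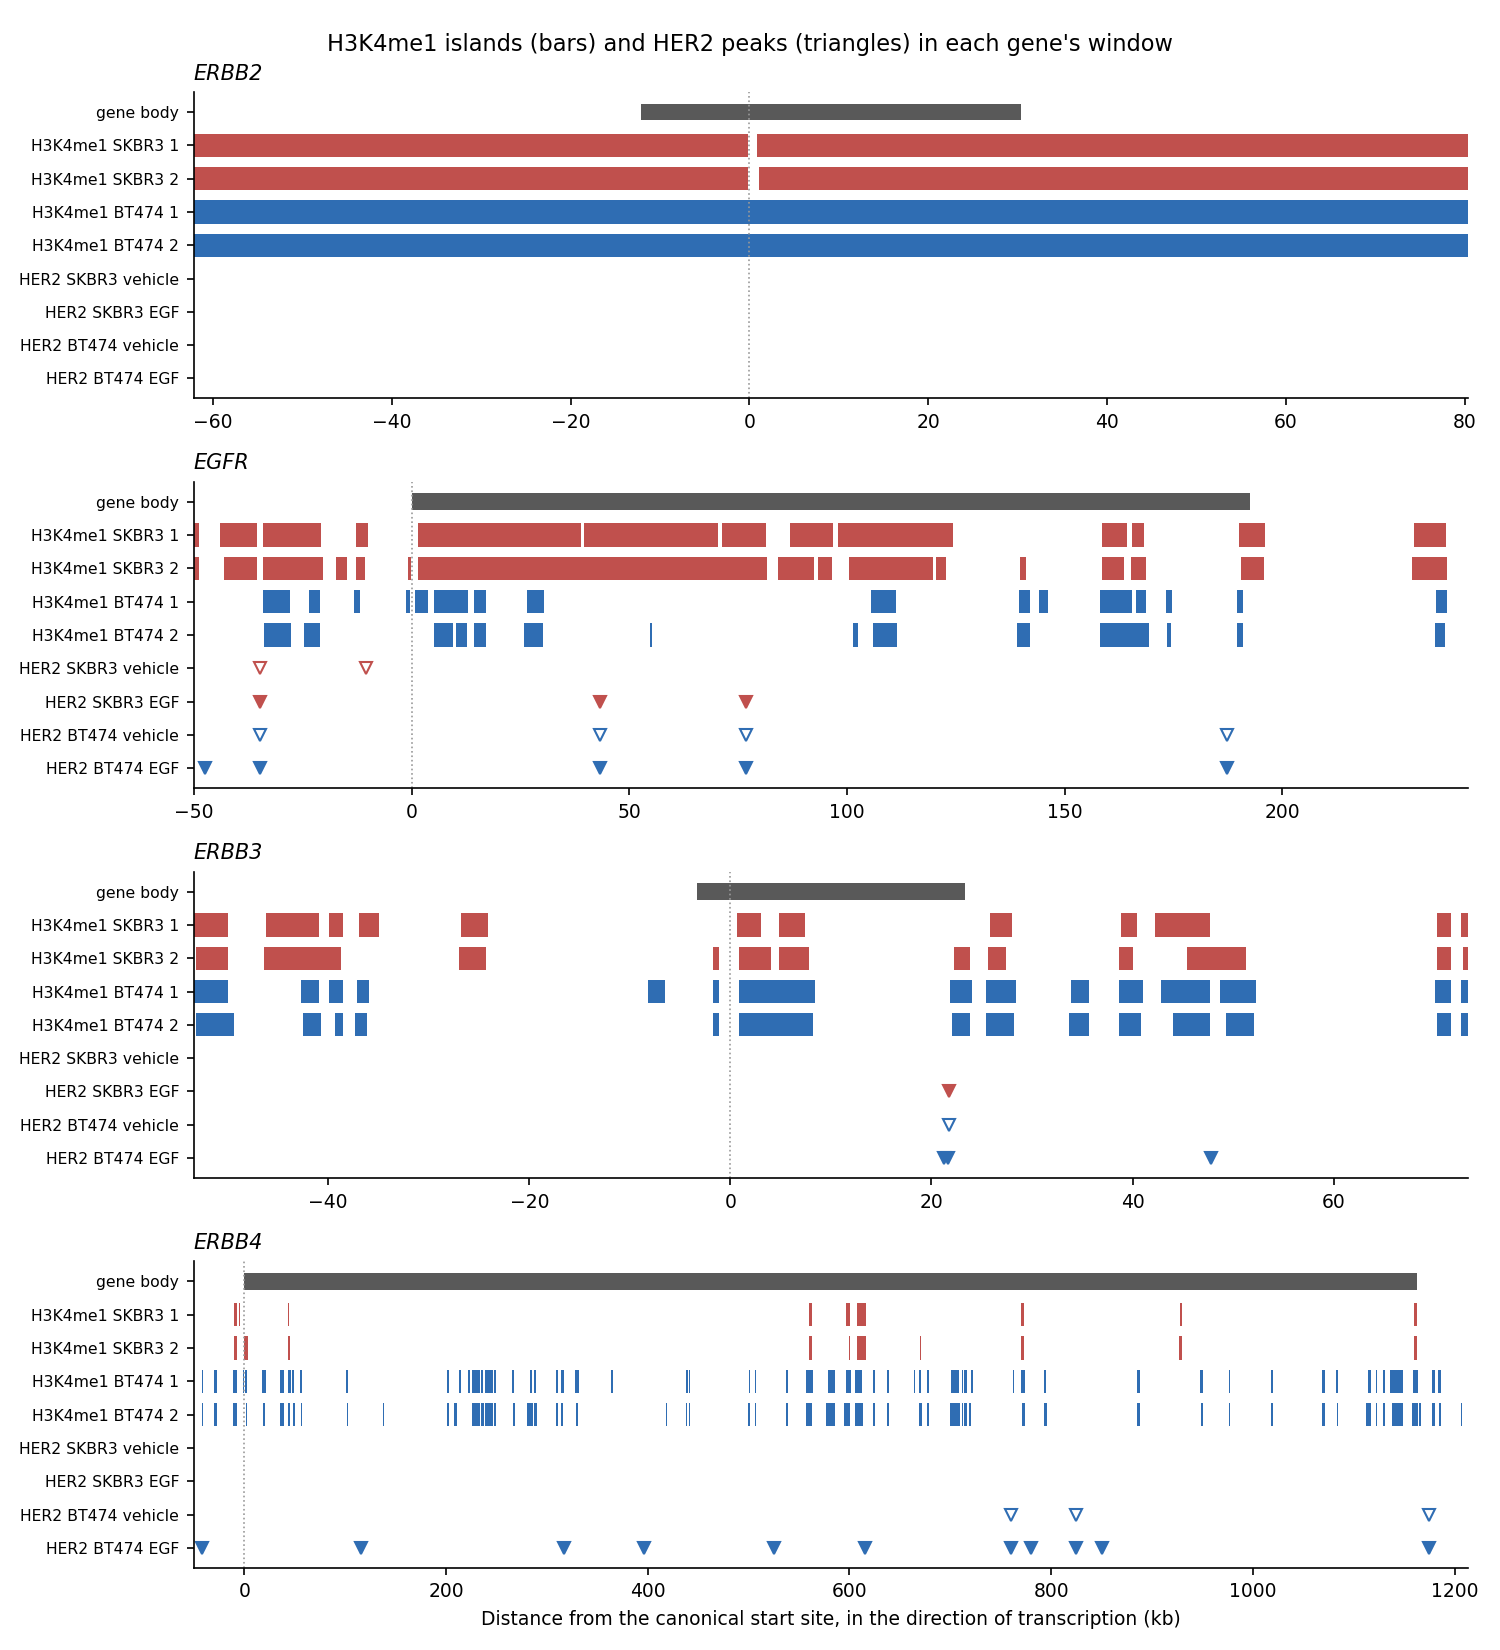
Islands and HER2 peaks in each window, against distance in kb from the canonical start site in the direction of transcription. Bars are H3K4me1 islands by library and triangles HER2 peaks by list, open for vehicle and filled for EGF, with SKBR3 in red and BT474 in blue. The SKBR3 islands fill the first 122.9 kb intron of EGFR, while ERBB4 has 59 and 60 islands in BT474 and ERBB2 has no HER2 peak.

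The second comparison asked where HER2 itself was listed at the genes of its family. The ERBB2 window held no HER2 peak in any of the 4 lists, and the EGFR window held peaks in all 4. Both SKBR3 peaks after vehicle lay in the upstream flank of EGFR, and with flanks of 0 or 10 kb that list had 0 peaks at the 4 genes. In SKBR3 after vehicle, SKBR3 after EGF, BT474 after vehicle and BT474 after EGF, EGFR had 2, 3, 4 and 5 peaks. ERBB3 had 0, 1, 1 and 3 peaks and ERBB4 had 0, 0, 3 and 11, in the same order. Among all protein-coding windows, 12.2%, 13%, 35.5% and 72.7% had at least 1 peak in these lists. With 1 list for each condition there is no replicate check of any difference between conditions.

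Window length differed nearly 10 times between the genes, so peaks were also counted per Mb. EGFR had 6.83 and 10.3 peaks per Mb in the SKBR3 lists and 13.7 and 17.1 in the BT474 lists. The whole lists held 0.855 and 0.830 peaks per Mb of genome in SKBR3 and 2.82 and 9.66 in BT474. The EGFR window lay above the list density in all 4, which for SKBR3 after vehicle rested on the 50 kb flanks. The Poisson interval of its count held the number expected at that density in BT474 after EGF, at 1.62 to 11.7 against 2.83. It also did in SKBR3 after vehicle, where it began at 0.242. In SKBR3 after EGF it began at 0.619 against 0.243 expected, and in BT474 after vehicle at 1.09 against 0.825. All EGFR sites of SKBR3 after EGF were also in BT474 after vehicle, so these lists are not separate support. The interval takes peaks as independent and evenly spread along the genome, which was not tested. The share of all windows with as high a density was not counted. ERBB4, at 2.38 and 8.71 peaks per Mb in BT474, lay little below the list density, with 3 and 11 peaks against 3.56 and 12.2 expected, inside the intervals. At the list density the ERBB2 window would have held 0.122 and 0.118 peaks in SKBR3 and 0.402 and 1.38 in BT474, so a count of 0 is a small shortfall in a window of this size.

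**Figure D4:**
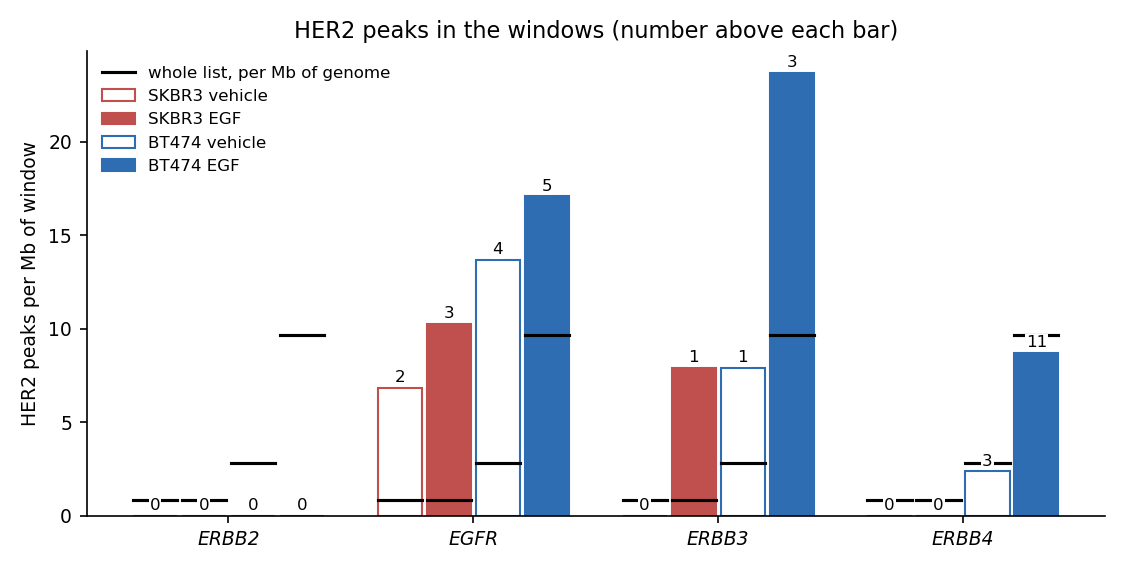
HER2 peaks per Mb of window for each gene and list, with the number of peaks above each bar, SKBR3 in red, BT474 in blue, open for vehicle and filled for EGF. Black lines give the density of the whole list. With these 50 kb flanks the EGFR bars stand above their lines in all 4 lists, and every ERBB2 bar is 0.

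The space around ERBB2 without peaks was wide. The nearest HER2 peak lay to the right of the gene body in every list, at 729 and 715 kb in SKBR3 after vehicle and EGF and at 756 and 358 kb in BT474. To the left it lay 9122 and 4366 kb away in SKBR3 and 2554 and 2547 kb away in BT474. The stretches between the flanking peaks were 9.89, 5.12, 3.35 and 2.95 Mb long, and ranked 31st of 2573, 90th of 2497, 35th of 8536 and 23rd of 29303 stretches between neighbouring peaks of a chromosome in their lists. Long stretches hold more of the genome, so a rank among stretches overstates how unusual the place of a gene is. Stretches at least as long made up 18.1%, 29.0%, 7.51% and 4.63% of the summed length of all stretches. A nearest peak at least as far as that of ERBB2 was found for 40.7% and 36.3% of protein-coding genes in SKBR3 and for 4.74% and 1.90% in BT474. H3K4me1 islands covered 70.1% and 69.9% of the stretch after EGF in BT474. The study's methods describe the removal of regions with a high input signal, and whether that step was applied to these lists, and its part in the absence of peaks, was not tested.

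The 33 peaks formed 20 sites when overlapping peaks were joined, 6 at EGFR, 3 at ERBB3 and 11 at ERBB4. The EGFR site 34.9 kb upstream of the start was the sole site in all 4 lists, with scores of 51 and 122.5 in SKBR3 after vehicle and EGF and 105 and 239 in BT474. Another 3 sites were in every list but SKBR3 after vehicle. They were the sites in EGFR intron 1 at 43.3 and 76.8 kb and the site in coding exon 28 of ERBB3, 21.7 kb past its start. The farther EGFR site scored 270 in SKBR3 after EGF, and 134 and 447.5 in BT474 after vehicle and EGF. The ERBB3 exon site scored 368 in SKBR3 after EGF, higher than 93.6% of that list, and 99.5 and 119.5 in BT474. Of the 20 sites, 15 were in BT474 lists alone, 11 of them after EGF alone, and 1 was in an SKBR3 list alone. The BT474 lists are much longer, with 8559 and 29326 peaks after vehicle and EGF against 2596 and 2520 in SKBR3. The same shares among all sites were not counted, so this cannot be read as a trait of the receptor genes. EGFR also had a site in exon 28 in both BT474 lists, with midpoints outside the coding sequence, and 9 of the 11 ERBB4 sites were in introns.

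Scores have no stated scale, and the median score of a list was 35 and 129.25 in SKBR3 after vehicle and EGF and 64.5 and 56 in BT474. Sites were therefore compared by the share of their own list with a lower score. Sites in both lists of a line gave 9 pairs, and this share was higher after EGF in 8 of 9, all of them in BT474. The exception was the sole SKBR3 pair, the EGFR upstream site, above 81.3% of peaks after vehicle and 47.9% after EGF. The BT474 lists held 8559 peaks after vehicle and 29326 after EGF, against 2596 and 2520 in SKBR3. A share of the list depends on how many weaker peaks the list holds, and the part of list size in the rises was not tested. How many of all sites in both BT474 lists rose was not counted, so the rises cannot be read as particular to these genes. The EGFR site at 76.8 kb in BT474 went from above 84.1% to above 99.1% of peaks, and the ERBB4 intron 4 site from above 70.0% to above 97.3%. The lowest start was that of the EGFR site at 43.3 kb in BT474, above 4.28% of peaks after vehicle and 69.4% after EGF.

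Most of these peaks lay outside H3K4me1 islands, as did most peaks of each whole list. An island of both libraries of the same line overlapped 2 of the 33 peaks, and an island of at least 1 library overlapped 4. The 2 were the EGFR intron 1 sites in SKBR3 after EGF. In BT474 the same sites carried HER2 peaks with no island over them, the nearest BT474 island being 11.2 to 11.3 kb and 21.3 kb away. None of the 14 ERBB4 peaks overlapped a BT474 island. Over whole lists, 12.4% and 13.1% of SKBR3 peaks after vehicle and EGF and 11.1% and 10.1% of BT474 peaks were in islands of both libraries.

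Other genes of the pathway were read from the same test. Of 11 ligand genes 10 were tested, and NRG1 was not, having island reads in a single library. Windows of 6 ligands were higher in BT474, 3 were higher in SKBR3 and 1 was not called, with a median log2 difference of 0.74. Among all windows tested 42.1% were called higher in BT474 and 30% higher in SKBR3. Of 21 adaptor and effector genes 3 were higher in BT474, 9 were higher in SKBR3 and 9 were not called, with a median of -0.07. The median of all windows was 0.26. Some of these windows overlap or adjoin, such as those of STAT3, STAT5A and STAT5B and those of AREG, EREG and EPGN, and share islands.

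The extremes of the pathway lists were 3 neuregulins and a kinase. NRG3, a ligand of ERBB4, was listed at 0 in both SKBR3 libraries and at a window RPKM of 0.186 and 0.214 in BT474, and called (edgeR adjusted p = 0.000141). NRG4, another ERBB4 ligand, had 0.0777 and 0.0414 in SKBR3 and 0.256 and 0.210 in BT474, a log2 difference of 1.97 (SE 0.347, edgeR adjusted p = 0.00675). It was not called over the gene body alone (edgeR adjusted p = 0.253) or with flanks of 10 kb (edgeR adjusted p = 0.164). NRG2 was higher in SKBR3, at 1.04 and 1.15 against 0.0672 and 0.0375, a log2 difference of -4.37 (SE 0.286, edgeR adjusted p = 0.000388). With flanks of 100 kb the NRG2 difference was -2.44 (SE 0.082, edgeR adjusted p = 1.81e-05). SRC, a kinase that acts with ERBB receptors, had 0.902 and 1.16 in SKBR3 and was listed at 0 in both BT474 libraries (edgeR adjusted p = 0.000261). The groups did not overlap for any of these genes, but they were picked by their log2 differences, so this adds no support. Among all windows 49.3% were apart with BT474 higher and 34.7% with SKBR3 higher. HER2 peaks in the NRG3 window numbered 0 in both SKBR3 lists and 4 and 17 in BT474 after vehicle and EGF, and those in the SRC window 3 and 6 in SKBR3 and 0 and 5 in BT474. These counts were not scaled by window length or set against list density. The BT474 lists hold 8559 and 29326 peaks in all, against 2596 and 2520 in SKBR3. No fold is given for NRG3 and SRC, since the files list islands and not reads outside them.

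**Figure D5:**
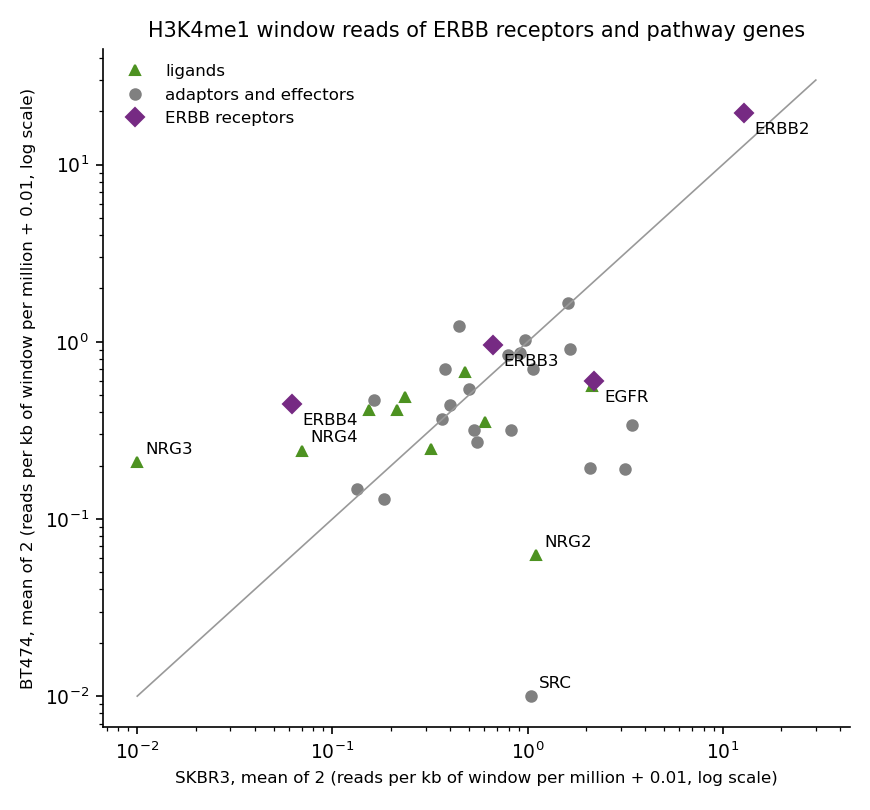
Mean H3K4me1 RPKM of the window in BT474 against SKBR3, with 0.01 added and log axes, for the 4 receptors, 10 ligands and 21 adaptors and effectors, each point a mean of 2 libraries. The line marks equal levels. EGFR, NRG2 and SRC lie below it and ERBB4, NRG3 and NRG4 above it.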

How the data were processed

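H3K4me1 ChIP-seq (2 libraries per line) and HER2 ChIP-exo (1 list per condition) were taken from the deposited files, and groups from the labels. Per the study's methods, reads were mapped to hg19 with bowtie2, HER2 peaks called with MACS2 and H3K4me1 islands with SICER, with the input of the line as control, and blacklisted and high-input regions removed. The submitters' processing notes name BWA 0.5.9, MACS 1.4.1 and SICER 1.1 on GRCh37, and which set made the files could not be settled. The authors deposited a count of reads for each island, without scaling, and a score for each HER2 peak, of unstated scale. The 2 inputs were not analysed here.

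Genes came from GENCODE v44lift37. An island's reads were shared out by its overlap with a window, scaled by total island reads and rounded. Windows with at least 10 reads in at least 2 libraries were tested with edgeR 4.0.16 (quasi-likelihood, Benjamini-Hochberg over all windows, called below 0.05, R 4.3.3). Alternatives were TMM, DESeq2 1.42.0, no filter, other flanks, midpoints, a replicate block and leaving out each library. Overlap was 1 bp. Mitochondrial alignments used blastn 2.17.0. Like genes were nearest by Euclidean distance of log2 window RPKM plus 0.01. Genes named were the members, their like genes, genes overlapping their windows, and the pathway genes with the 2 largest and 2 smallest log2 differences. The members and lists were chosen with earlier results of these data known. Statistics were tested on simulated data.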

Additional observations from a re-analysis of the deposited data

How the results depend on the processing

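All directions of the 4 receptor genes held under every alternative run. Calls in the edgeR test were kept by EGFR and ERBB4 throughout, with adjusted p of at most 0.00177. ERBB2 was not called when whole islands were assigned by midpoint (log2 1.04, edgeR adjusted p = 0.0521), nor ERBB3 over the gene body alone (0.68, edgeR adjusted p = 0.0846). With each library left out, log2 differences were 0.58 to 0.62 for ERBB2, -1.91 to -1.87 for EGFR, 0.47 to 0.61 for ERBB3 and 2.99 to 3.13 for ERBB4, and 9413 to 14260 windows were called. The pathway calls were then 6 to 10 higher in BT474 and 11 to 13 higher in SKBR3.

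The difference in cover, in percentage points, was 2.59, 1.76 and 1.99 for ERBB2 with flanks of 0, 10 and 100 kb, and -44.9, -42.2 and -36.9 for EGFR. For ERBB3 it was 11.4 and 10.9 with flanks of 0 and 10 kb, and for ERBB4 11.5 and 10.97 with flanks of 10 and 100 kb. With islands at or above the median density of the library alone it was -35.3 for EGFR, 8.47 for ERBB3 and 7.80 for ERBB4. The log2 ratio of island density, BT474 over SKBR3, was 0.62 for ERBB2 and 0.11 for ERBB3 over gene bodies alone, and 0.19 for ERBB3 with 10 kb flanks. Scaled by the median density of each library it was 0.48, -0.35, 0.28 and 0.35 for ERBB2, EGFR, ERBB3 and ERBB4. Leaving out libraries gave cover differences of 0.702 to 0.842, -38.8 to -37.3, 0.861 to 4.65 and 11.6 to 11.9, and density ratios of 0.57 to 0.60, -0.28 to -0.20, 0.33 to 0.45 and 0.41 to 0.51, in that order.

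Start sites of the 4 genes covered in both libraries numbered 17 in SKBR3 and 27 in BT474, 39 and 41 within 1 kb of an island, 9 and 14 for protein-coding transcripts alone, and 17 to 25 in SKBR3 and 28 in BT474 from a single library. The 2 SKBR3 vehicle peaks were 0 with flanks of 0 or 10 kb, and at or above the median score 2 peaks were left in SKBR3 after EGF and 4 in BT474 after vehicle. TMM lowered log2 differences by 0.14 without turning any of the 4.

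Replicate numbers were shared by the lines, but the labels give them no common batch, and deviations of same-numbered libraries correlated at r = -0.101 over 16409 windows. With the replicate block 12055 windows were called, against 13582 without, and with the crossed pairing, chosen after seeing the data, 12786. Under the block the log2 differences were 0.60, -1.89, 0.54 and 3.06 for ERBB2, EGFR, ERBB3 and ERBB4, all called. HER2 differences between lists have no replicate, and the depth of those libraries is unknown. Islands list enriched stretches alone, so a level of 0 means that none was called.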
